A study of Saccharomyces cerevisiae with 4 samples.

Results

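The genes described here encode 10 subunits of RNA polymerase II, the enzyme that transcribes protein-coding genes, and 25 subunits of Mediator, the complex that connects this enzyme with transcription factors bound upstream of genes. They were chosen by name as members of the 2 complexes and located by symbol in the R64 annotation, which made 35 of the 5710 nuclear protein-coding genes counted. The polymerase subunit genes RPB10 and RPC10 are shorter than 300 bp and were not counted. Capped 5′ ends of polyadenylated RNA were sequenced in 4 libraries of Saccharomyces cerevisiae, 2 from the wild-type strain BY4741 and 2 from set2Δ, and the study used them to find genes in which transcription starts internally when Set2 is missing. Both strains are haploids of mating type a that carry the his3, leu2, ura3 and met15 deletions of BY4741, and in set2Δ a kanMX4 cassette replaces SET2. The mutant comes from a deletion collection, which makes it a single strain. Cells were grown in YPD with 1% glucose at 30 °C to an optical density of about 1.

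RNA polymerase II consists of a large catalytic core, a stalk and small subunits, some of which it shares with the polymerases that make ribosomal and transfer RNA. Mediator is described as a head and a middle module that contact the polymerase, a tail that is bound by activators, a scaffold subunit that joins them, and a kinase module that associates reversibly. Set2 travels with elongating polymerase and methylates lysine 36 of histone H3 in gene bodies, and its loss is known in yeast for permitting transcription from within genes.

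The libraries held 375442 to 452888 counted 5′ ends in BY4741 and 1099482 to 1267578 in set2Δ, so that counts of the mutant are the more precise. For each gene 3 windows were counted: the 5′ window, which runs from 250 bp before the start codon through the first 200 bp of the gene, the internal window, which is the rest of the gene, and the antisense strand of the internal window. Within the SET2 coding sequence 9 and 2 ends were counted in BY4741 and 0 and 1 in set2Δ. The a-specific genes MFA1, MFA2, STE2 and BAR1 had between 63 and 842 ends in each library, and of the alpha-specific genes MF(ALPHA)1 and STE3 had 0 to 12, while MF(ALPHA)2 had 2 in each BY4741 library and 34 and 31 in set2Δ. The libraries come from bulk cultures, in which fewer expressing cells and less RNA per cell cannot be told apart.

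The first question was which of the 35 genes gained or lost 5′ ends inside the coding sequence. Internal 5′ ends were higher in set2Δ for 6 genes, RPB9, MED4, MED2, NUT1, GAL11 and SRB8, and lower for 2, RPO21 and SRB2 (quasi-likelihood test of edgeR, Benjamini-Hochberg adjusted over all tested genes, adjusted p below 0.1). The scaling moved these counts together with those of all genes. Scaling to library totals gave 11 members higher and 0 lower, against 41.2% and 7.32% of all tested genes. Scaling to the 5′ windows gave 9 and 0, against 36.1% and 9.35%, and cyclic loess offsets gave 5 and 3, against 20.1% and 21.3%. Of the 6 that rose, 3 encode tail subunits, and the remainder a middle subunit, a kinase module subunit and a small polymerase subunit. The test covered 29 of the 35 genes, those with at least 10 ends over the 4 libraries. The share that rose was 20.7% of the members against 25.2% of all 4726 tested genes, and the share that fell was 6.90% against 17.5%. The median log2 fold change was -0.04 over the members and 0.16 over all tested genes. The 6 untested genes, RPB11, SRB6, CSE2, NUT2, SOH1 and SSN8, held 1 to 8 internal ends over the 4 libraries.

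**Figure D1:**
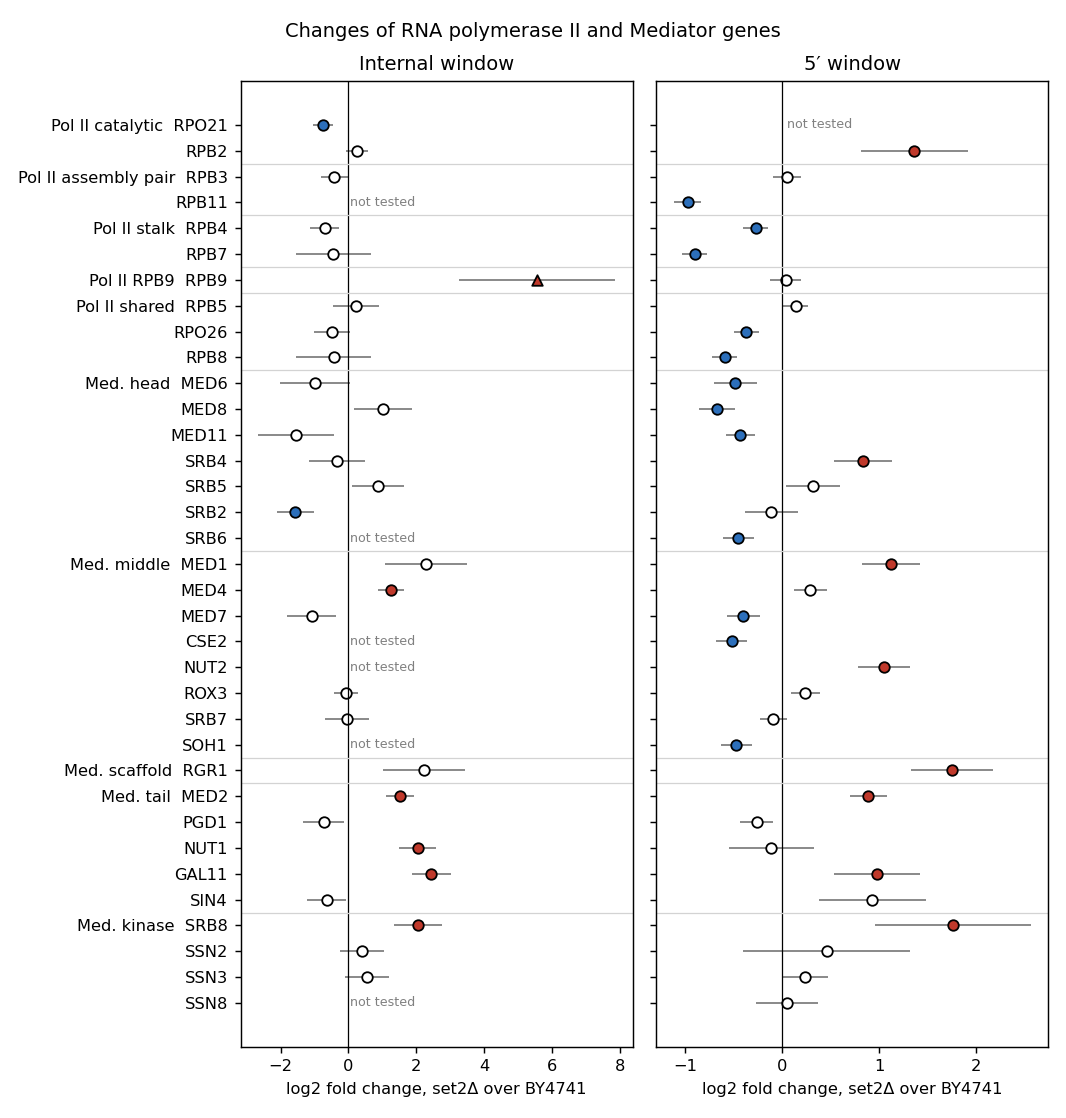
Log2 fold changes (set2Δ over BY4741, horizontal axis) of the 35 genes in the internal window (left) and the 5′ window (right), ordered by module, with bars of 1 standard error (n = 2 libraries per strain). Red symbols are higher and blue symbols lower at an adjusted p below 0.1, open symbols passed neither way, and the triangle is RPB9, which had no internal end in BY4741, so that its fitted value depends on the prior count; 3 of 5 tail genes are red on the left, and the right panel holds 8 red and 12 blue symbols.

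Long and short genes are given separately, since internal gains were more frequent among long genes overall. Among genes of 2000 bp or more, 3 of 9 members rose (NUT1, GAL11 and SRB8) against 51.1% of 1254 tested genes, and 1 of 9 fell (RPO21) against 5.66%. Among shorter genes, 3 of 20 tested members rose (RPB9, MED4 and MED2) against 15.8% of 3472, and 1 of 20 fell (SRB2) against 21.8%. The long members that passed in neither direction were RPB2, SRB4, RGR1, SIN4 and SSN2.

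Over all 35 genes together, 6.83% and 6.79% of the sense ends in BY4741 lay in the internal window, and 13.05% and 10.8% of those in set2Δ. The mean was 6.81% ± 0.0286 (SD, n = 2) in BY4741 and 11.9% ± 1.59 (SD, n = 2) in set2Δ, a difference of 5.11 percentage points, and the strains did not overlap. With 2 libraries against 2 an exact permutation test cannot give a two-sided p below 0.33, and none was run. The share over all tested genes was higher in every library, at 12.7% and 11.4% in BY4741 and 22.0% and 20.2% in set2Δ. When each position counted once whatever its number of ends, 18.4% and 18.5% of the members' positions in BY4741 were internal, and 33.8% and 29.3% of those in set2Δ. Most of the ends behind this share lie in 5′ windows, where counts of single positions piled up at 16. In the members' 5′ windows 8 and 9 positions in BY4741 and 45 and 29 in set2Δ held exactly 16 ends, while 4 and 3 against 24 and 20 held 15, and 3 and 2 against 18 and 18 held 17. Positions with 16 or more ends held 15.7% and 13.4% of these 5′ ends in BY4741 and 25.9% and 26.4% in set2Δ. The same peak at 16 was present over each whole library. These 5′ ends are part of the denominator of the internal share, and the part that this compression has in the difference of 5.11 points was not tested. With positions of 8 or more counts left out, 22.2% and 23.2% of the ends in BY4741 were internal, and 27.8% and 24.5% of those in set2Δ. The internal ends of the mutant also lay more often on a pyrimidine followed by a purine, the pair at which yeast transcripts usually begin: 31.0% and 35.2% of the members' internal ends in BY4741 and 49.9% and 52.5% in set2Δ, where 23.6% of the bases of these windows and 74.1% of the ends in the 5′ windows have this pair.

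RPO21 encodes the largest polymerase subunit, which carries part of the active site and the long repetitive C-terminal tail. It occupies 5202 bp on the minus strand of chromosome IV (205360 to 210561). Its internal window held 28 and 13 ends in BY4741 and 65 and 46 in set2Δ. After scaling this was 461 ± 143 CPM (internal ends relative to the normalised total of internal ends of the library, mean ± SD, n = 2) in BY4741 and 283 ± 15.9 CPM in set2Δ, a log2 fold change of -0.74 (SE 0.30, adjusted p = 0.0394), with no overlap of the strains. The ends concentrated towards the 3′ end of the gene in both strains. When the window was cut into 3 equal parts, the part at the 3′ end held 20 of 28 and 11 of 13 in BY4741 and 46 of 65 and 25 of 46 in set2Δ. The call was lost without BY4741 replicate 1 (-0.35, adjusted p = 0.606), without set2Δ replicate 2 (-0.83, 0.114) with DESeq2 (-0.82, 0.207) and with scaling to library totals (-0.08, 0.870) or to the 5′ windows (-0.26, 0.544).

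RPB2, the gene of the second catalytic subunit, had 14 and 14 internal ends in BY4741 and 91 and 61 in set2Δ. This gave 334 ± 75.3 CPM in BY4741 and 386 ± 36.4 CPM in set2Δ, with overlap between the strains and no call (log2 fold change 0.25, SE 0.32, adjusted p = 0.587).

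The most used starts of both catalytic genes lay upstream of the 5′ window. They were searched for up to 700 bp before the start codon. In the other members the search stopped at 250 bp, so that the distances cannot be ranked against theirs. RPO21 had 1 end in all 4 libraries together in its 5′ window, and was therefore not tested there. Its most used start lay 543 bp before the start codon, with 6 and 5 ends in BY4741 and 11 and 9 in set2Δ. The most used start of RPB2 lay 278 bp before the start codon, just outside the 5′ window. It had 11 and 8 ends in BY4741 and 17 and 16 in set2Δ, and other positions near it were used as well. The stretches around these positions are shown because they place the starts of both transcripts, with the base before the first transcribed base and that base in capitals, 5′ to 3′ on the coding strand (R64, minus strand, chrIV:211095-211124 and chrXV:616940-616969).
RPO21: atcgtcctttagagtgcagCAagaacatta
RPB2: aattcatgcaataaggaacTGaccactact

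With a window that reached 700 bp upstream or to the nearest gene on the same strand, RPO21 had 16 and 9 ends in BY4741 and 41 and 31 in set2Δ. Its log2 fold change was then -0.19 (SE 0.36, adjusted p = 0.663), and no difference was called. RPB2 had 34 and 22 ends in BY4741 and 151 and 160 in set2Δ in this window, and it was higher in set2Δ (0.75, SE 0.20, adjusted p = 0.000832). This wider window was chosen after these positions were seen.

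**Figure D2:**
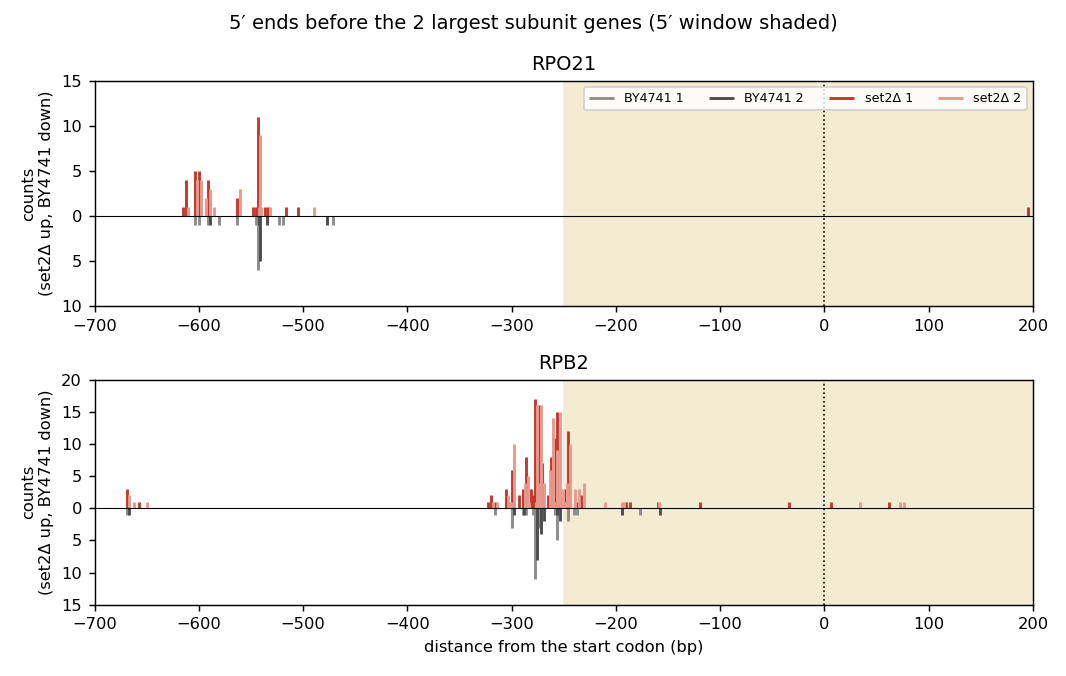
Counts of sense 5′ ends (vertical axis, set2Δ upwards and BY4741 downwards, 1 colour per library) against the distance from the start codon in bp for RPO21 (top) and RPB2 (bottom), with the 5′ window shaded and the bars of replicate 2 drawn 2 bp to the right. The tallest RPO21 position lies at -543 and the tallest RPB2 position at -278, both outside the shading.

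RPB9 encodes a small subunit known in yeast for its part in start site selection and transcriptional fidelity. Its internal window of 169 bp (chromosome VII, 374459 to 374827, minus strand) held no end in either BY4741 library and 14 and 5 in set2Δ. Taking 3 counts over both BY4741 libraries as the floor, it was at least 1.39-fold higher in set2Δ (adjusted p = 0.0435). The 5′ window of RPB9 had 175 and 220.5 CPM in BY4741 and 203 and 198 CPM in set2Δ, with overlap and no call (log2 fold change 0.04, SE 0.16, adjusted p = 0.862), and the internal change exceeded the 5′ change (adjusted p = 0.0772, interaction of strain and window). This excess was not called without BY4741 replicate 1 (adjusted p = 0.267) or replicate 2 (0.247), with 300 bp left out (0.163), with distinct positions (0.179) or without positions of 8 or more counts (0.300). The internal call rests on few ends and was lost without BY4741 replicate 1 (adjusted p = 0.184), without BY4741 replicate 2 (0.111), with 300 bp left out at the start (0.139) and with cyclic loess offsets (0.142), and without set2Δ replicate 1 the gene had fewer than 10 counts and was not tested.

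The remaining polymerase genes passed in neither direction internally. RPB3, whose product pairs with that of RPB11 at the start of polymerase assembly, had 7 and 13 ends in BY4741 and 33 and 35 in set2Δ. The stalk genes RPB4 and RPB7 and the shared subunit genes RPB5, RPO26 and RPB8 had log2 fold changes between -0.70 and 0.22 with adjusted p from 0.196 to 0.844.

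**Figure D3:**
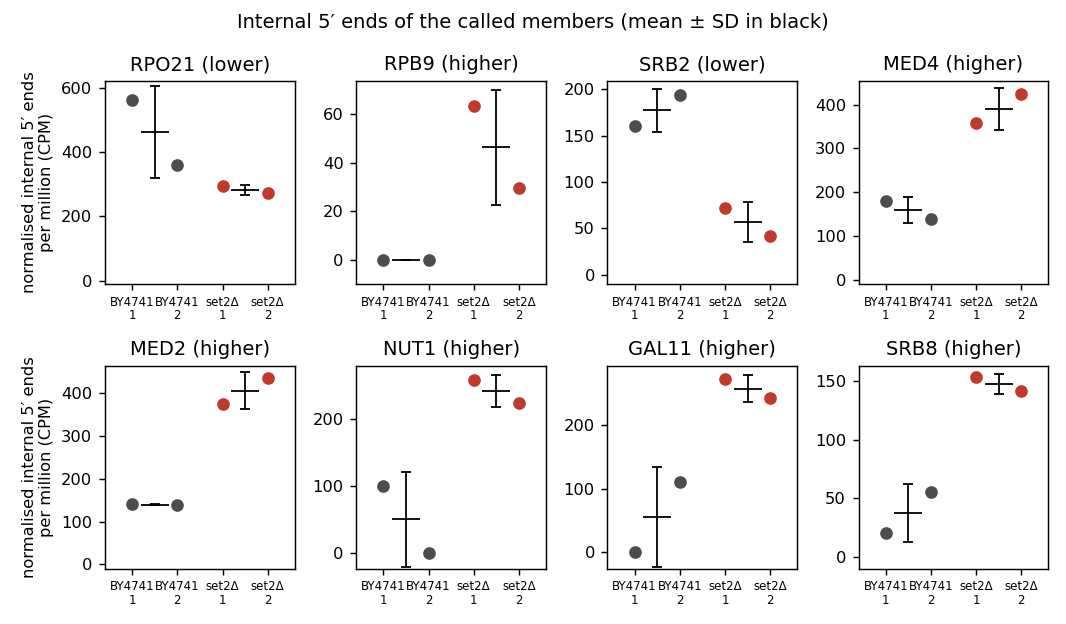
Normalised internal 5′ ends (CPM, vertical axes that differ between panels) in each library for the 8 genes called in the internal window, with the mean and SD of each strain in black. The set2Δ libraries lie above both BY4741 libraries in 6 panels and below them for RPO21 and SRB2; 1 BY4741 library of NUT1 and 1 of GAL11 is at 0, as are both of RPB9.

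In the Mediator tail 3 of 5 genes rose internally and 0 fell (0 at an unadjusted p below 0.05 and 0 by DESeq2), against 25.2% and 17.5% of all tested genes. GAL11, NUT1 and SIN4 belong to the genes of 2000 bp or more, of which 51.1% rose, and 5 genes are too few to set the tail apart. MED2 had 7 and 5 internal ends in BY4741 and 83 and 74 in set2Δ. The level was 139 ± 1.48 CPM in BY4741 and 406 ± 43.3 CPM in set2Δ, a log2 fold change of 1.52 (SE 0.40, adjusted p = 0.000721), and this call was kept under all 18 alternatives fitted for it. The ends gathered between bases 895 and 994 of the 1296-bp gene (chromosome IV, 441014 to 442309, minus strand), where BY4741 had 2 and 0 and set2Δ 46 and 25; this 100-bp stretch was chosen as the densest in set2Δ.

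GAL11 encodes the tail subunit through which Gal4 and other activators recruit Mediator. It had 0 and 4 internal ends in BY4741 and 60 and 41 in set2Δ (chromosome XV, 234940 to 238185, plus strand). The normalised level was 55.4 ± 78.3 CPM in BY4741 and 256.5 ± 20.8 CPM in set2Δ, with no overlap, a log2 fold change of 2.44 (SE 0.58, adjusted p = 0.000167). The 3′ part of the window held 40 of the 60 ends in set2Δ replicate 1 and 22 of the 41 in replicate 2, and 3 of the 4 in BY4741 replicate 2. Without BY4741 replicate 1, the library with no internal end, the log2 fold change was 1.21 and no longer called (adjusted p = 0.148).

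NUT1, a tail gene named from a screen for negative regulation of transcription, had 5 and 0 internal ends in BY4741 and 57 and 38 in set2Δ (chromosome VII, 217524 to 220922, plus strand). Its log2 fold change was 2.04 (SE 0.55, adjusted p = 0.00114), and the levels of 50.2 ± 70.95 CPM in BY4741 and 241 ± 23.7 CPM in set2Δ did not overlap. In set2Δ 51 of the 57 ends and 34 of the 38 lay in the 3′ part of the window, and in BY4741 replicate 1 3 of the 5. The 5′ window held 11 and 6 ends in BY4741 and 29 and 22 in set2Δ (log2 fold change -0.11, SE 0.44, adjusted p = 0.841), and the internal change exceeded the 5′ change by 2.19 on the log2 scale (SE 0.78, adjusted p = 0.0490). Without BY4741 replicate 2 the internal log2 fold change was 1.17 (adjusted p = 0.117), and the excess over the 5′ change was not called without BY4741 replicate 2 (1.55, 0.243), set2Δ replicate 1 (2.12, 0.159) or set2Δ replicate 2 (2.13, 0.198).

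NUT1 and RPB9 were the 2 members with an internal change above the 5′ change among 28 tested, or 7.14%, against 8.04% of 4503 genes. Of the 28, 0 had an internal change below the 5′ change by edgeR (1 at an unadjusted p below 0.05, 0 by DESeq2), against 6.68% of all genes.

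The other tail genes passed in neither direction. SIN4 had 8 and 3 internal ends in BY4741 and 19 and 13 in set2Δ, and PGD1 had 6 and 4 against 10 and 17. Their log2 fold changes were -0.64 and -0.73 (adjusted p = 0.414 and 0.370).

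MED4 of the middle module (chromosome XV, 658747 to 659601, plus strand) had 9 and 5 internal ends in BY4741 and 79 and 72 in set2Δ. The level was 159.5 ± 29.9 CPM in BY4741 and 391 ± 47.8 CPM in set2Δ, a log2 fold change of 1.25 (SE 0.38, adjusted p = 0.00497). Between bases 590 and 689, the densest 100 bp in set2Δ, BY4741 had 3 and 2 ends and set2Δ 50 and 51. The call was lost with DESeq2 (1.18, adjusted p = 0.143), without set2Δ replicate 2 (0.98, 0.113) and when each position counted once (0.48, 0.392).

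Single internal positions with at least 5 ends in both set2Δ libraries, and more than in either BY4741 library after scaling to library totals, were found in 2 members, 1 in MED4 and 1 in ROX3. The MED4 position is base 609 of the gene, with no end in BY4741 and 6 and 7 in set2Δ, and the next ATG downstream is in frame at codon 231 of 284. The ROX3 position is base 241 of the gene, again with no end in BY4741 and with 6 and 5 in set2Δ. The first ATG after it is out of frame, and the first in-frame ATG is codon 100 of 220, 57 bases downstream. Since the rule asked for fewer scaled ends in BY4741, whose libraries were shallower, the absence of BY4741 ends is not separate support. The sequences are shown because these 2 positions met the rule, and below each stands the main start of the same gene for comparison. The base before the first transcribed base and that base are in capitals, and all 4 are a pyrimidine followed by a purine (R64, MED4 plus strand, chrXV:659335-659364 and chrXV:658613-658642, ROX3 minus strand, chrII:44669-44698 and chrII:45008-45037).
MED4 internal: tcattacatagtaaagagcTAactagaata
MED4 main start: cattctctgctcaccatacCGcgaaggaaa
ROX3 internal: aattctccaccataccgacCAgagaaaatg
ROX3 main start: ggtttaaatagagcctcttCAttcctttcc

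The main starts were used in every library, with 10 and 11 ends in BY4741 and 16 and 18 in set2Δ for MED4 and 13 and 12 against 16 and 18 for ROX3. ROX3 as a whole, a middle gene first known as a repressor of hypoxic genes, had 12 and 11 internal ends in BY4741 and 57 and 43 in set2Δ and was not called (log2 fold change -0.07, SE 0.36, adjusted p = 0.913). Per kilobase of internal window, the most ends were counted in ROX3 and MED4, with 123 and 121 per kb in the first set2Δ library and 92.9 and 110 per kb in the other.

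Of the other middle genes MED1 had 1 and 0 internal ends in BY4741 and 14 and 10 in set2Δ, a ratio of scaled counts of 5.28 with a 95% exact interval of 0.861 to 217, which covers counting error only. It was not called (adjusted p = 0.126). MED7 and SRB7, with log2 fold changes of -1.08 and -0.04, passed in neither direction (adjusted p = 0.254 and 0.975). The scaffold gene RGR1 had 1 and 0 ends in BY4741 and 17 and 6 in set2Δ over 3049 bp of internal window, a ratio of 5.06 (95% exact interval 0.822 to 208), and was not called either (adjusted p = 0.145).

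In the kinase module SRB8 rose. This gene (chromosome III, 254371 to 258654, plus strand) had 1 and 2 internal ends in BY4741 and 34 and 24 in set2Δ, a ratio of scaled counts of 4.25 (95% exact interval 1.39 to 21.2), and the adjusted p was 0.0140. The level was 37.7 ± 24.95 CPM in BY4741 and 148 ± 8.575 CPM in set2Δ. The ends fell into separate groups along the gene, and the densest 100 bp in set2Δ, bases 3151 to 3250, held 1 and 0 ends in BY4741 and 9 and 8 in set2Δ. The call was lost without BY4741 replicate 1 (log2 fold change 1.40, adjusted p = 0.238) and with DESeq2 (1.96, 0.198).

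SSN2, SSN3, the cyclin-dependent kinase of the module, and SSN8, its cyclin, were not called or not tested. In SSN3 13 and 12 of the 22 and 18 ends in set2Δ lay between bases 369 and 468, where BY4741 had 1 and 0; this stretch too was chosen as the densest in set2Δ. In SSN2 the middle part of the window held 14 of 17 and 13 of 19 ends in set2Δ, and 1 of 5 and 0 of 1 in BY4741.

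**Figure D4:**
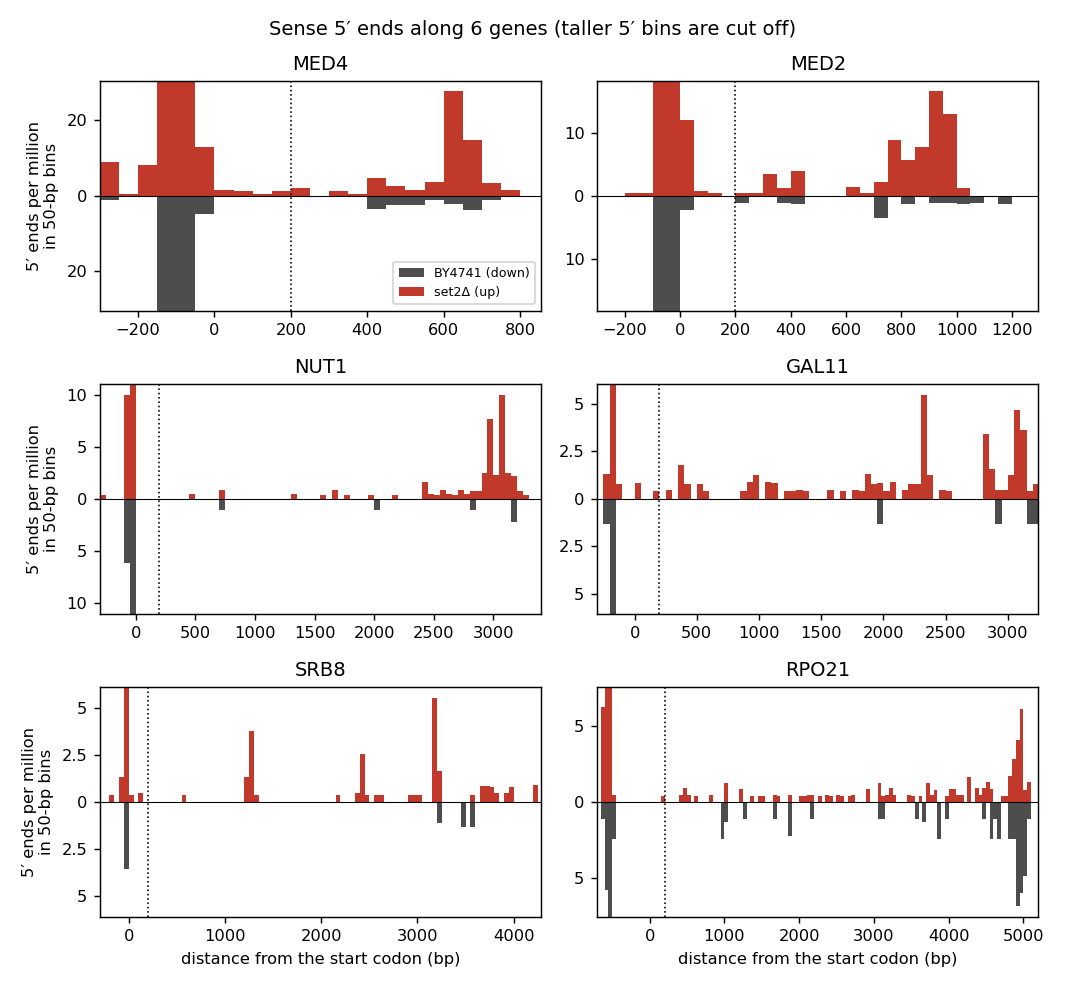
Sense 5′ ends scaled to library totals (vertical axis, 50-bp bins, mean of 2 libraries, set2Δ upwards in red and BY4741 downwards in grey) against the distance from the start codon in bp for 5 genes called higher internally and RPO21, called lower. These calls come from the scaling to internal ends. With the scaling drawn here RPO21 was not called (log2 fold change -0.08). The dotted line marks the start of the internal window, and bins at the 5′ end taller than the internal ones are cut off. The red bins of MED4 and MED2 rise in 1 region, those of NUT1 near its 3′ end and those of SRB8 in separate groups, while RPO21 has its tallest internal bins near the 3′ end in both strains.

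The head module, which contacts the polymerase most closely, had 0 of 6 tested genes with an internal gain (0 at an unadjusted p below 0.05 and 0 by DESeq2) and 1 with a loss. Of all tested genes 25.2% rose and 17.5% fell, and of those shorter than 2000 bp, as all but SRB4 of these genes are, 15.8% and 21.8%, so that 6 genes do not set the head apart. SRB2 had 8 and 7 internal ends in BY4741 and 16 and 7 in set2Δ (chromosome VIII, 189131 to 189864, minus strand). The level fell from 177 ± 23.5 CPM to 56.8 ± 21.95 CPM, a log2 fold change of -1.56 (SE 0.55, adjusted p = 0.0166), and the call was lost with DESeq2 (-1.71, adjusted p = 0.114) and with scaling to library totals (-0.89, 0.176) or to the 5′ windows (-1.08, 0.104). SRB4, the central head subunit, had 2 and 3 internal ends in BY4741 and 12 and 6 in set2Δ and was not called (-0.34, SE 0.83, adjusted p = 0.798). MED6, MED8, MED11 and SRB5 had between 1 and 3 internal ends in each BY4741 library, and their adjusted p ran from 0.299 to 0.492.

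Antisense ends were rare in these genes, and 5 of 35 had enough to be tested, all of Mediator. SRB8 was higher in set2Δ, with no antisense end in BY4741 and 12 and 11 in set2Δ, at least 1.44-fold with the same floor as for RPB9 (adjusted p = 0.0678). SRB2 was lower, with 11 and 5 antisense ends in BY4741 and 14 and 9 in set2Δ (log2 fold change -1.87, SE 0.57, adjusted p = 0.0142). This is 1 of 5 in each direction, against 17.9% of 1478 tested genes higher and 4.4% lower. Scaling to library totals gave 3 higher and 0 lower, against 54.5% and 2.03% of all tested genes, and scaling to the 5′ windows 3 and 1, against 49.9% and 2.91%.

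SRB5 (1 and 0 against 14 and 14), MED4 (1 and 0 against 7 and 5) and SIN4 (0 and 0 against 6 and 4) were not called antisense. The SRB8 call was lost without each library in turn (adjusted p = 0.197 to 0.369), and that of SRB2 without BY4741 replicate 1 (0.288), set2Δ replicate 1 (0.147) or set2Δ replicate 2 (0.173).

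The second question was whether the regular starts of these genes changed. In the 5′ window 8 genes were higher in set2Δ and 12 lower among the 34 tested, or 23.5% and 35.3%, against 32.3% and 30.2% of 5063 genes. With scaling to library totals 13 were higher and 5 lower, against 42.1% and 23.4% of all genes. The higher genes were RPB2, SRB4, MED1, NUT2, RGR1, MED2, GAL11 and SRB8, and the lower genes RPB11, RPB4, RPB7, RPO26, RPB8, MED6, MED8, MED11, SRB6, MED7, CSE2 and SOH1. RPB2 had 5 and 2 ends in this window in BY4741 and 26 and 33 in set2Δ (log2 fold change 1.36, SE 0.55, adjusted p = 0.0253). Its most used start lies outside this window, so that the call does not cover that start. The window's edge cuts through a cluster of RPB2 starts. Position -256, outside, had 5 and 2 ends in BY4741 and 15 and 15 in set2Δ. Position -246, inside, had 2 and 0 in BY4741 and 12 and 10 in set2Δ. Of the 12 that fell, 5 encode polymerase subunits, 4 head subunits and 3 middle subunits, and 0 belong to the scaffold, tail or kinase module (0 tail and 0 kinase genes fell at an unadjusted p below 0.05 or by DESeq2).

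The direction went with how many ends a gene had in BY4741. The 12 lower genes had 66 to 321 BY4741 ends in the 5′ window (median 157.5), and the 8 higher genes 3 to 61 (median 17.5). Across the 34 genes the correlation of the log2 BY4741 count with the log2 fold change was -0.78, and across 5036 genes it was -0.72; these are descriptions, since both axes share the BY4741 libraries and genes are not independent replicates. Among all genes with at least 200 and fewer than 400 BY4741 ends 79.5% were lower and 2.68% higher, and among those with up to 24 ends 1.81% were lower and 55.1% higher. The most used start of RPB7 had 16 ends in each BY4741 library and 22 and 20 in set2Δ, and that of RPB8 had 21 and 16 against 19 and 19, although the set2Δ libraries were the deeper ones. RPB5 had 17 positions with 16 or more ends in set2Δ, the most of any member. When each position counted once, 1 member was higher and 2 were lower, against 7.79% and 13.2% of all tested genes. With cyclic loess offsets 8 were higher and 6 lower, against 24.0% and 22.7%, and 3 and 5 of these were among those named above. The counts of single positions thus look compressed near 16. Positions of that height or more hold a larger share of the members' 5′ ends in set2Δ, as given above, but its deeper libraries reach a fixed count more often. What part the level and this compression have in the 12 lower and 8 higher calls was not tested.

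**Figure D5:**
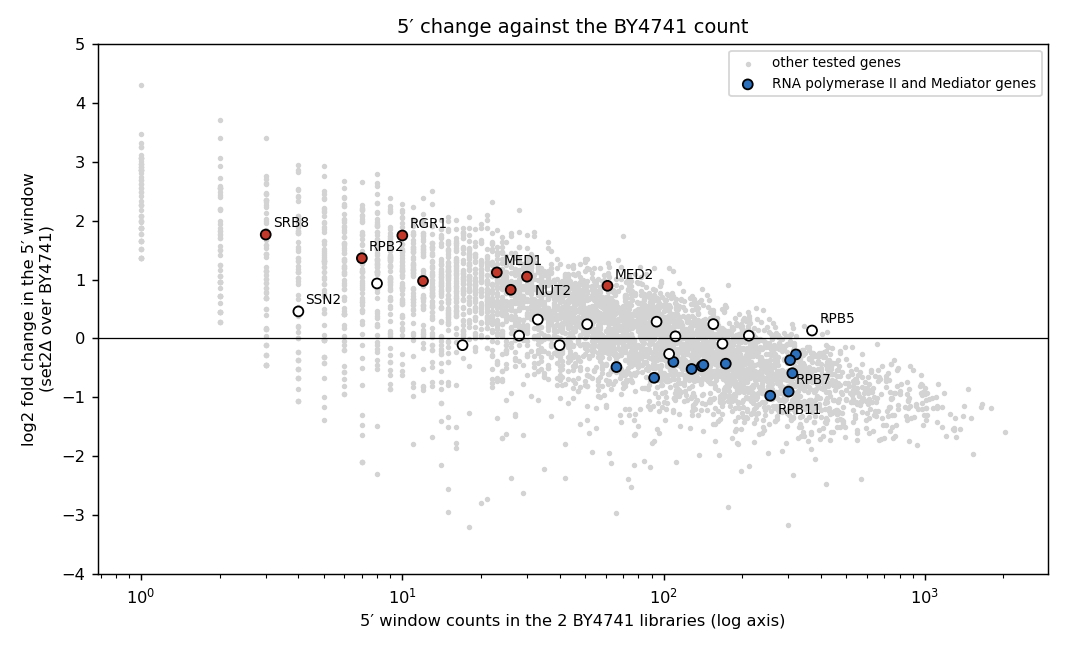
Log2 fold change in the 5′ window (vertical axis, set2Δ over BY4741) against the number of 5′ ends in both BY4741 libraries (horizontal log axis) for the 5036 tested genes with a BY4741 end. The 34 tested members among them are large symbols (red higher, blue lower, open not called at an adjusted p below 0.1), and the other genes are grey. The red symbols lie at 3 to 61 BY4741 ends and the blue ones at 66 to 321, within the band of the other genes.

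Among the polymerase genes RPB11 showed the lowest log2 fold change. It had 127 and 129 ends in its 5′ window in BY4741 and 212 and 212 in set2Δ (-0.97, SE 0.14, adjusted p = 8.27e-12). RPB7 of the stalk had 172 and 129 ends in BY4741 and 289 and 234 in set2Δ (-0.90, SE 0.13, adjusted p = 4.35e-11), while its partner RPB4 had 185 and 136 against 437 and 424 (-0.27, SE 0.13, adjusted p = 0.0593). RPB4 was the weakest of the calls and turned to 0.36 with cyclic loess offsets.

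Among the shared subunits RPB8 had 168 and 143 ends in BY4741 and 366 and 306 in set2Δ (-0.59, SE 0.13, adjusted p = 2.05e-05). RPO26 had 171 and 134 against 393 and 373 (-0.37, SE 0.13, adjusted p = 0.00961), and its log2 fold change was 0.91 when positions with 8 or more counts were left out. RPB5, with 214 and 156 against 645 and 667 the member with the most 5′ ends, and RPB3, with 119 and 93 against 375 and 336, were not called (adjusted p = 0.360 and 0.779).

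In the head SRB4 had 16 and 10 ends in its 5′ window in BY4741 and 77 and 73 in set2Δ (0.83, SE 0.30, adjusted p = 0.0116), the lowest level of the module and its only gain. The 4 head genes that fell were MED8 (49 and 43 against 105 and 83, log2 fold change -0.67), SRB6 (71 and 71 against 181 and 157, -0.45), MED11 (96 and 77 against 208 and 209, -0.43) and MED6 (41 and 25 against 87 and 66, -0.48). MED8 and RPB7 were the members whose loss was called under all 15 alternatives fitted for the 5′ window. SRB5 and SRB2 were not called (adjusted p = 0.332 and 0.740).

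MED11 and SRB2 differed from the other members in where these ends lay. In MED11 83 of 96 and 70 of 77 ends of the 5′ window in BY4741, and 153 of 208 and 147 of 209 in set2Δ, lay at or after the first base of the annotated start codon. In SRB2, whose gene holds an intron, they were 17 of 22 and 9 of 18 against 49 of 69 and 36 of 51. The share over the 4 libraries was 76.8% in MED11 and 69.4% in SRB2, under 20% in the other tested members, and above 50% in 3.99% of all 5063 genes.

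The most used MED11 position lay 29 bases after the first base of the annotated start codon, with 14 and 14 ends in BY4741 and 16 and 17 in set2Δ, and the next in-frame ATG is codon 17, 19 bases downstream. The most used SRB2 position was the first base of the start codon itself (5 and 2 against 10 and 9). Both stretches are shown because these starts leave the annotated start codon out of the transcript or at its very first base, with the base before the first transcribed base and that base in capitals (R64, minus strands, chrXIII:494457-494486 and chrVIII:189855-189884). They were chosen after their positions were seen.
MED11: ctcaatacgaagagtgaaaCGaaacaagaa
SRB2: aagcacagtagcaatccatCAtgggaaaat

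In the middle module MED1 (13 and 10 against 87 and 76, log2 fold change 1.12, SE 0.30, adjusted p = 0.000618) and NUT2 (22 and 8 against 107 and 95, 1.05, SE 0.27, adjusted p = 0.000268) rose in the 5′ window. The MED1 call was lost with cyclic loess offsets. That of NUT2 was lost when each position counted once and without positions of 8 or more counts. CSE2 (72 and 56 against 147 and 143, -0.52), SOH1 (73 and 67 against 175 and 153, -0.47) and MED7 (49 and 60 against 151 and 118, -0.40) fell. ROX3, the highest of the module with 88 and 67 against 301 and 294, MED4 and SRB7 were not called (adjusted p = 0.142, 0.146 and 0.612).

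RGR1 had 6 and 4 ends in its 5′ window in BY4741 and 61 and 49 in set2Δ, a log2 fold change of 1.75 (SE 0.42, adjusted p = 0.000118). Over the 15 alternatives it ran from 0.90 to 1.93. The call was lost when each position counted once and without positions of 8 or more counts.

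In the tail MED2 (41 and 20 against 189 and 179, 0.89, SE 0.19, adjusted p = 1.76e-05) and GAL11 (6 and 6 against 41 and 36, 0.98, SE 0.44, adjusted p = 0.0468) rose at the 5′ end as well as internally. The MED2 call at the 5′ end was lost when each position counted once and without positions of 8 or more counts. PGD1, the highest of the module with 53 and 52 against 139 and 145, and SIN4, the lowest with 4 and 4 against 30 and 20, were not called (adjusted p = 0.189 and 0.135). The GAL11 call was lost without BY4741 replicate 1 (0.79, adjusted p = 0.255), set2Δ replicate 1 (0.97, 0.112) or set2Δ replicate 2 (0.97, 0.110), and with the window that reaches 700 bp upstream (0.55, 0.177).

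In the kinase module SRB8 had 2 and 1 ends in its 5′ window in BY4741 and 18 and 16 in set2Δ, a ratio of scaled counts of 3.49 (95% exact interval 1.098 to 17.8, adjusted p = 0.0485), and no call remained when any of the 4 libraries was left out (adjusted p = 0.110 to 0.172). SSN3, the highest of the module with 22 and 29 against 107 and 89, SSN8 with 14 and 14 against 50 and 44, and SSN2, the lowest with 3 and 1 against 11 and 7, were not called (adjusted p = 0.368, 0.911 and 0.666).

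Calls in the 5′ window that depended on 1 library were also those of RPB2 (without BY4741 replicate 2, 1.00, adjusted p = 0.190; without set2Δ replicate 2, 1.09, 0.195), SRB4 (without BY4741 replicate 2, 0.67, 0.125) and SRB6 (without BY4741 replicate 2, -0.31, 0.200). The same held for MED6 (without BY4741 replicate 1, -0.27, 0.499; without set2Δ replicate 2, -0.39, 0.221), MED7 (without BY4741 replicate 2, -0.10, 0.746; without set2Δ replicate 2, -0.33, 0.194) and RPB4 (without BY4741 replicate 1, -0.22, 0.243; without set2Δ replicate 1, -0.20, 0.346). Without set2Δ replicate 1 MED11 (-0.33, 0.127) and RPO26 (-0.31, 0.125) were not called.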

How the data were processed

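The authors aligned the reads to R64-1-1 with Novoalign according to the study's methods, and left out reads with several alignments or soft-clipped 5′ ends; the submitters' processing notes also name CASAVA 1.8.2. The deposited files give whole-number counts of 5′ ends at each base of each strand, without normalization, separately for each of the 4 libraries (biological duplicates of 2 strains, 375442 to 1267578 counts each). RNA was ligated to an oligo with a random barcode of 8 nt and 50 nt were read; the sources used here do not say if reads with the same barcode were merged. On the minus strand the listed positions were shifted by 42 bp, after which 76.95% to 78.8% of minus-strand positions with 5 or more counts lay on a pyrimidine followed by a purine, against 23.4% to 23.8% as listed. Counts were summed per gene for 5710 of 6002 nuclear coding genes (300 bp or more). Positions also covered by the same kind of window of another counted gene on that strand were left out. Antisense counts also left out the 5′ windows of other genes. A 5′ window of a same-strand neighbour inside an internal window was kept, and leaving it out was an alternative. Introns were not removed. Genes with at least 10 counts were tested with edgeR 4.0.16 in R 4.3.3 (TMM, quasi-likelihood test, Benjamini-Hochberg over all tested genes, adjusted p below 0.1). The internal and 5′ changes were compared in 1 model with library as a factor. DESeq2 1.42.0, which the study's methods used, limma 3.58.1 (cyclic loess), other scalings, filters, windows, ways of counting, a replicate block and each library left out were alternatives. Genes without counts in BY4741 were set against a floor of 3 counts, and those with 1 to 3 are given as ratios with 95% exact intervals. Intervals cover counting error only. The fits were tested on simulated data. Python 3.11.15 with scipy 1.17.1 was used.

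The members, the gene lists and the tests were chosen with earlier results of these data known. Values in every library are given for called members, RPO21, RPB2, RGR1, GAL11, SRB4 and the highest and lowest 5′ level of each module. Sequences were read from the R64 reference for internal positions with at least 5 counts in both set2Δ libraries and for the main starts of the same genes; those of RPO21, RPB2, MED11 and SRB2 were added after their values were seen.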

Additional observations from a re-analysis of the deposited data

How the results depend on the processing

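The counts of called members depended most on the scaling and on how positions were counted. Scaling to library totals moved the median log2 fold change of all genes from 0.16 to 0.83 internally, from 0.11 to 0.29 in the 5′ window and from 1.23 to 2.09 antisense. It gave 1948 genes higher and 346 lower internally, against 1189 and 828, and 11 members higher and 0 lower internally, 13 higher and 5 lower in the 5′ window, 3 higher and 0 lower antisense, and 4 with an internal above the 5′ change. Scaling to the 5′ windows left 0 members lower internally and gave 3 higher antisense and 4 with an internal above the 5′ change. With both scalings the last count stands against 15.7% of all tested genes. DESeq2 called 3 members higher and 0 lower internally, against 13.1% and 9.71% of all tested genes. In the 5′ window it called 4 higher and 7 lower, against 13.8% and 23.7%. It called 0 higher antisense, against 5.3%, and 0 with an internal above the 5′ change, against 1.29%. The calls lost were those of MED4, SRB8, RPO21 and SRB2 internally and of GAL11, RPB2, SRB4, SRB8, MED11, MED6, MED7, RPB4 and SRB6 in the 5′ window. DESeq2 gave no adjusted p for RPB9 internally, SRB8 antisense, or NUT1 and RPB9 in the last comparison. Distinct positions gave 1 member higher and 2 lower in the 5′ window, against 7.79% and 13.2% of all tested genes. They gave 2 higher antisense, against 28.9%, and 0 with an internal above the 5′ change, against 2.92%. The difference in internal share was then 13.1 percentage points. Leaving out positions with 8 or more counts gave 5 members higher in the 5′ window, against 18.0% of all tested genes, and a difference in share of 3.48 points. Cyclic loess offsets gave 6 members lower in the 5′ window, against 22.7%, and 0 higher antisense, against 4.26%. With filterByExpr 0 were higher antisense, 1 had an internal change above the 5′ change and 1 below it, against 36.9%, 11.0% and 14.6% of all tested genes. No filter left 0 lower antisense, against 0.846%. At an adjusted p below 0.05 there were 0 higher antisense and 1 with an internal above the 5′ change, with 100 bp left out 0 higher antisense, and with 300 bp left out 1 with an internal above the 5′ change. RPB4 turned to 0.36 with cyclic loess offsets and 0.04 without positions of 8 or more counts in the 5′ window, and RPO26 to 0.22 with cyclic loess offsets, 0.25 with distinct positions and 0.91 without positions of 8 or more counts. The cause was not tested.

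With a single library left out, 3 to 5 members were higher and 1 to 3 lower internally, 5 to 6 higher and 9 to 10 lower in the 5′ window, 0 higher and 0 to 1 lower antisense, and 0 to 1 had an internal above the 5′ change, while the difference in internal share ran from 3.98 to 6.24 points. In these fits the lone library of a strain is assumed to vary like the pair of the other strain. The replicate numbers are not known to pair the libraries (the deviations of same-numbered libraries correlated at -0.04 in both sense windows). A replicate block gave 6 members higher and 2 lower internally, against 23.0% and 15.1% of all tested genes. In the 5′ window it gave 8 higher and 11 lower, against 29.2% and 28.3%, and antisense 0 higher and 1 lower, against 8.12% and 2.84%. At this depth several BY4741 values are 0 to 5 ends, so that a gain can be called in a gene such as MED1 or RGR1 only when it is large.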

Other observations

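Other genes of the transcription machinery, taken from lists of general transcription factors, TFIID subunits and subunits of RNA polymerases I and III, held calls in both directions. Of 18 tested general transcription factor genes 6 rose internally and 0 fell by edgeR's quasi-likelihood test (0 at an unadjusted p below 0.05, 0 by DESeq2), and of 13 TFIID subunit genes 5 rose and 2 fell. The 7 polymerase I genes included 1 that rose and 2 that fell, the 8 tested polymerase III genes 2 and 1, and the 2 genes shared by these polymerases 0 of each. Over these lists together 14 of 48 tested genes rose and 5 fell, or 29.2% and 10.4%, against 25.2% and 17.5% of all 4726 tested genes. The 5 that fell were TAF8, TAF9, RPA135, RPA12 and RPC34, with log2 fold changes from -2.36 (RPA12) to -0.63 (RPA135). The genes given below were taken as the called ones with the lowest adjusted p, and all of them rose. RAD3, a helicase of TFIIH, had 8 and 5 internal ends in BY4741 and 151 and 130 in set2Δ (log2 fold change 2.25, SE 0.36, adjusted p = 8.79e-09). TAF4, a TFIID subunit, had 6 and 5 against 136 and 115 (2.32, SE 0.38, adjusted p = 1.85e-08), and TAF7 15 and 7 against 185 and 157 (1.78, SE 0.31, adjusted p = 1.73e-07). TOA1, the large subunit of TFIIA, had 19 and 11 against 201 and 183 (1.50, SE 0.29, adjusted p = 1.97e-06).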
